A study of Homo sapiens with 2 samples.

Results

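SRSF1 crosslink sites crowd together at 48 stretches of RNA in H1299 cells, outside the long nuclear RNA MALAT1, the messenger RNA of PLEC and a few other regions set aside below. These 48 loci hold 350 of the 6754 listed sites (5.18%), among 5199 loci in all. They were found by joining sites on 1 strand whose midpoints lay at most 1000 nt apart, and by keeping the loci with 5 or more sites and a length over 500 nt. The members were thus chosen by the number of listed sites, their spacing and the length of the locus, and these are given as a description. H1299 is a widely used human cell line from a non-small cell lung cancer. The series holds 2 HITS-CLIP libraries of it, numbered as replicates of 1 group with no treatment named and no control library among them. The deposited list combines the replicates, so no value has a replicate spread, and nothing here was tested across experiments.

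SRSF1 is an SR protein: RNA-recognition domains bind RNA, often purine-rich stretches of exons, and a domain rich in arginine and serine contacts other splicing factors. It promotes the inclusion of many exons, and it also moves between nucleus and cytoplasm and takes part in RNA export and translation. In HITS-CLIP, living cells are lit with ultraviolet light so that the protein is linked to RNA in contact with it, and the RNA fragments pulled down with the protein (tags) are sequenced. A peptide left on the RNA can stop the reverse transcriptase, which gives a truncation site, or make it misread a base, which gives a mutation site. A locus with many sites is thus a stretch of RNA crosslinked at many separate positions, as is known of long exons and of abundant nuclear RNAs.

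Positions are those of the hg19 build, as the list gives them, counted from 1. No hg19 annotation or genome was used, so the loci are named by position and strand, and genes, exons and sequences are not given. Each locus also carries a number from 1 to 48 in falling order of its sites, with ties ordered by length. The names MALAT1 and PLEC come with the regions set aside by the rule. Whether a locus is abundant RNA or RNA bound more often per molecule cannot be told apart from tags alone, and the depth of the libraries is unknown here.

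Of 72 loci with 5 or more sites, 13 were at most 500 nt long, and 11 of the other 59 were set aside. The 11 were 1 locus at MALAT1, 2 at PLEC, 5 in regions of chromosomes 2, 16, 20 and 21 treated as ribosomal-RNA-like, and 3 on the mitochondrial sequence or chromosome Y. Just inside the rule stood 20 loci with exactly 5 sites and a shortest locus of 516 nt. Just outside it stood 25 loci with 4 sites, whose lengths ran from 516 to 1717 nt, and a locus of 10 sites that was 495 nt long. The 48 loci lay on 17 chromosomes, 21 on the plus and 27 on the minus strand. Chromosome 7 carried 6 of them, chromosomes 8 and 19 carried 5 each, and chromosomes 1, 11 and 17 carried 4 each. On chromosome 15 a single locus held 17.5% of the chromosome's 206 listed sites, whereas the single locus on chromosome 5 held 1.58% of 316. Locus length ran from 516 to 3624 nt, with a median of 1300 nt, and the density from 2.42 to 9.93 sites per kb, with a median of 4.79. Only 6 loci held 10 or more sites, and those 6 held 99 sites.

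Each locus holds sites of 1 strand by construction, because the rule joins sites on 1 strand only. Inside the 48 loci there were 0 listed sites on the opposite strand, and within 10000 nt on either side there were 3, next to loci 33 and 44. On the same strand the same flanks held 136 site placements, counted once per locus, around 31 of the loci. The other 17 loci had no further listed site within 10000 nt on their strand. They include loci 1 to 4, 7, 9 and 13, so several of the loci with the most sites stood by themselves. The same counts were not worked out for the other loci of the list, so nothing here sets the 48 apart.

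Most sites of the dense loci were truncation sites. They made up 292 of 350 sites (83.4%, exact Clopper-Pearson 95% interval 79.1 to 87.2%), against 69.3% (68.2 to 70.4%) of the 6404 sites outside. Without locus 1 the share was 82.2% (77.5 to 86.2%). Among the loci set aside the share ran both ways: it was 68.2% in MALAT1 (57.2 to 77.9%, 85 sites) and 89.1% in PLEC (76.4 to 96.4%, 46 sites, sparse stretches included). In the 13 short loci of at most 500 nt it was 55.2% (44.7 to 65.4%, 96 sites). The intervals cover counting error only and treat sites of 1 RNA as separate, so they are too narrow, and no test of the difference was made. The length limit bears on this share, which was 77.4% when the short loci were counted in.

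Truncated tags and the background expected beneath them both had higher medians than in the rest of the list. The median was 8 truncated tags (quartiles 6 and 11, range 4 to 31), against 6 (5 and 9, range 4 to 42) outside. Sites with 10 or more tags made up 103 of 292 (35.3%, 29.8 to 41.1%), against 20.3% (19.1 to 21.5%) outside. The expected number, which the list gives per position of a site's tag cluster, had a median of 0.28 tags here and 0.19 outside. The median ratio of observed to expected tags was 28.6 (range 7.82 to 83.3) against 35.7 outside. A site needs tags to be listed and a locus needs sites to be dense, so tag number is not independent of how the loci were chosen.

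Set beside sites with a like expected number, the sites of the dense loci had medians equal or close to those of the rest of the list. Where 0.15 to 0.25 tags were expected, the median was 6 truncated tags at 63 sites inside and 6 at 1389 sites outside. At 0.25 to 0.4 expected tags it was 8 at 107 sites inside and 8 at 808 outside. At 0.4 to 0.7 it was 11 at 57 sites and 11 at 461. At 0.7 or more it was 15 at 28 sites and 16 at 254. A site is listed only where its P against the expected number is low, at most 0.001, so the tags it needs rise with the expected number and like medians within a band are largely fixed by the listing. These bands were chosen after the data were seen.

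**Figure D1:**
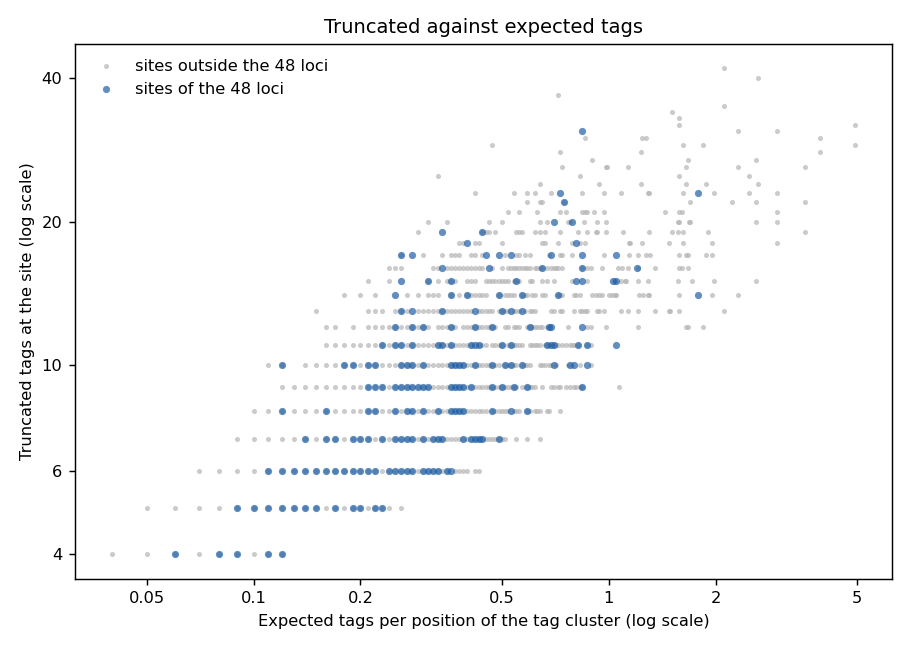
Truncated tags at a site (vertical, log scale) against the tags expected per position of its cluster (horizontal, log scale), with sites of the 48 loci in blue and all other truncation sites in grey; each point is a combination of values held by 1 or more sites. The blue points lie inside the grey cloud and reach 31 tags and an expected number of 1.79, where the grey ones reach 42 and 4.95.

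A step with the number of sites per locus ran through the list. Truncation sites that stood alone had a median of 6 tags and an expected 0.17, those in loci of 2 to 4 sites 7 and 0.22, and those of the 48 loci 8 and 0.28. MALAT1, with 11 and 0.785, and the 5 ribosomal-RNA-like loci, with 13 and 0.72, stood above them, and PLEC, with 8 and 0.25, stood beside them. The short loci were the highest, with 18 and 1.62. Within the 48, more sites did not go with higher ones: over the loci, the number of sites and the median tags had a Pearson r of 0.00 and a Spearman rho of -0.03 (n = 48, a description over loci that share 1 list). The number of sites went with locus length, with an r of 0.65 and a rho of 0.58. Sites per kb and the median tags had an r of 0.19 and a rho of 0.22. The median expected number and the median tags had an r of 0.81 and a rho of 0.76 over the same loci, a relation that the same limit on P builds in.

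Locus 1, chr15:65243807-65247430 on the minus strand, was the largest by far, with 34 truncation and 2 mutation sites in 3624 nt. Its truncation sites ran from 6 to 17 truncated tags with a median of 9, and 3 sites shared the highest value, at 171, 322 and 2724 nt from the most 5′ site. A highest site held 5.11% of the locus's 333 truncated tags, the lowest such share among the 48. The least such a share can be falls as the number of truncation sites rises, and locus 1 had the most. The 34 sites lay in 13 tag clusters out of 21 numbered across the locus. A single cluster spanning 760 nt held 10 of them, with 9, 11, 9, 17, 7, 11, 12, 7, 13 and 7 tags from 5′ to 3′, each against 0.28 expected. The next cluster 5′ of it with sites held 5, with 9, 13, 7, 7 and 15 tags against 0.26. The longest stretch without a site was 346 nt, so the crosslinks ran along the RNA with hardly a break. Its median ratio of observed to expected tags was 34.0, above the median of 26.9 over the loci. Both mutation sites were modest, 2 of 5 and 3 of 24 covering tags, where MALAT1 had 27 mutation sites at a median coverage of 73.

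**Figure D2:**
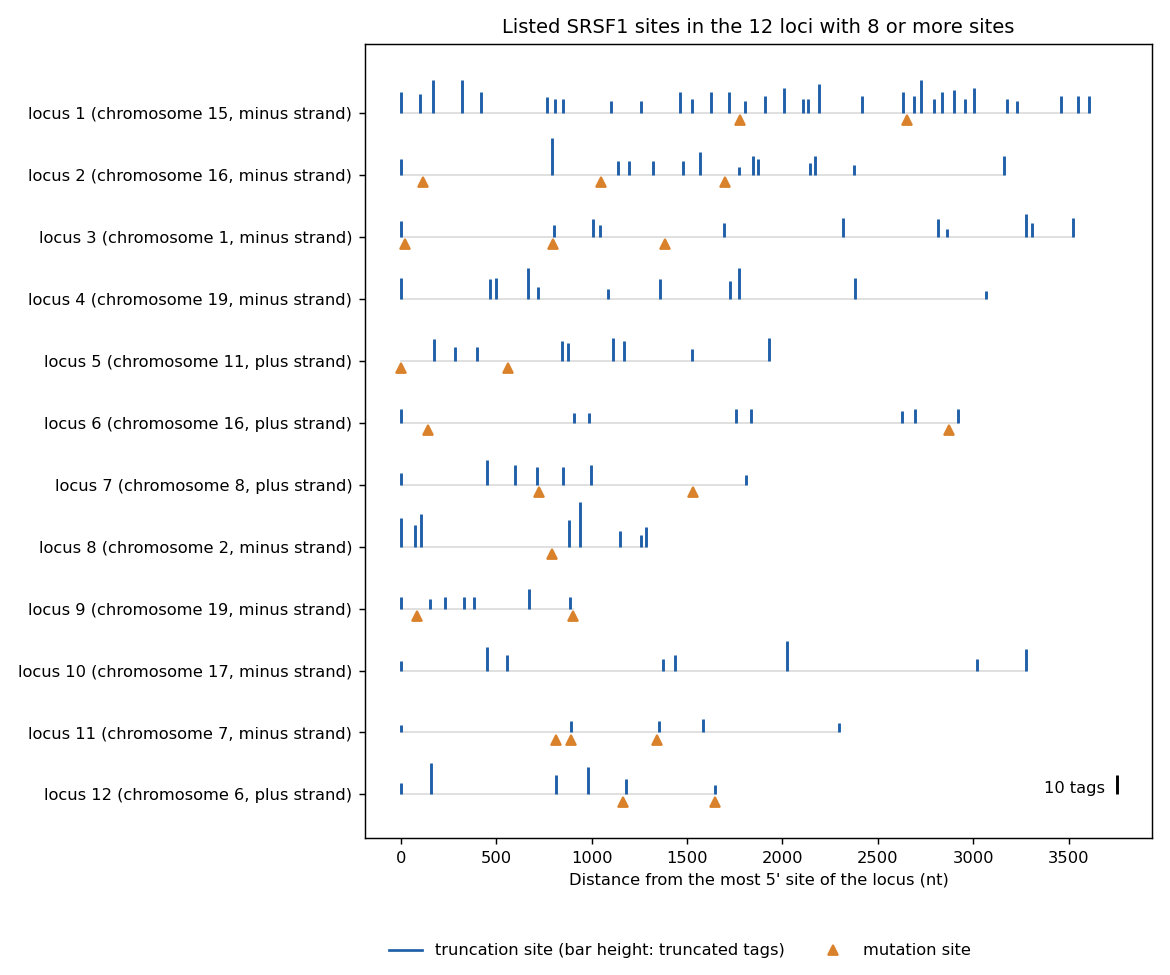
Maps of the 12 loci with 8 or more sites, drawn 5′ to 3′ as distance in nt from the most 5′ site; blue bars are truncation sites with height in truncated tags (scale bar, 10 tags) and orange triangles are mutation sites. Locus 1 is filled along its length with sites of 6 to 17 tags, whereas loci 10 and 11 hold 8 scattered sites each.

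Locus 2, chr16:89347555-89350735 on the minus strand, held 14 truncation and 3 mutation sites in 3181 nt. From 5′ to 3′ its truncation sites carried 8, 19, 7, 7, 7, 7, 12, 4, 10, 8, 6, 10, 5 and 10 tags. The site with 19, at 89349921 to 89349941, stood against 0.34 expected, a ratio of 55.9, and its P was at the lowest value in the list, 1e-100. That value was shared by 14 member sites and does not rank them. A run of 11 truncation sites lay between 1138 and 2377 nt from the most 5′ site, and a gap of 783 nt cut off the last site, at 3160 nt. Over its sites the median ratio of observed to expected was 46.0 and the median expected number 0.23. The mutation sites were thin, with 2 of 3, 2 of 4 and 2 of 5 covering tags mutated.

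Locus 3, chr1:173833327-173836868 on the minus strand, was nearly as long (3542 nt) but sparse and even. Its 11 truncation sites carried 8, 6, 9, 6, 7, 10, 9, 4, 12, 7 and 10 tags from 5′ to 3′, and the highest held 13.6% of the 88 tags. Those sites lay in 9 of 25 numbered clusters, spaced in small groups along the whole length. Mutation sites occurred in its 5′ part alone, at 25, 796 and 1383 nt, with 4 of 26, 2 of 6 and 3 of 14 covering tags mutated.

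Chromosome 19 carried a pair of unlike loci on its minus strand. Locus 4, chr19:24182416-24185500, held 11 truncation sites and no mutation site in 3085 nt, with 11, 10, 11, 16, 6, 5, 10, 9, 16, 11 and 4 tags from 5′ to 3′ and a median of 10. Locus 9, chr19:23506081-23507004, packed 9 sites into 924 nt at 9.74 per kb, second only to locus 1, yet its truncation sites were low, with 6, 5, 6, 6, 6, 10 and 6 tags. High density of sites thus occurred with low sites as well as with high ones. Both loci had no other listed site within 10000 nt on their strand.

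Locus 5, chr11:65190382-65192331 on the plus strand of the chromosome that also carries MALAT1, held 9 truncation sites with 11, 7, 7, 10, 9, 12, 10, 6 and 12 tags in 1950 nt. A run of 4 of them over 327 nt shared a cluster with 0.47 tags expected. Its mutation sites had 3 of 18 and 6 of 26 covering tags mutated. Locus 6, chr16:89652129-89655066 on the plus strand, was flat in contrast: its 8 truncation sites carried 7, 5, 5, 7, 7, 6, 7 and 7 tags, each in a cluster of its own, and 5 shared the highest value. They fell into groups at 0 nt, 908 to 989 nt, 1757 to 1837 nt and 2626 to 2917 nt. A mutation site in the last group had 10 of 20 covering tags mutated (50%), the highest share among member sites with 10 or more covering tags.

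Locus 7, chr8:128909437-128911264, and locus 36, chr8:128824500-128825567, lay on the plus strand of chromosome 8 with 83869 nt and 0 listed sites between them. Locus 7 held truncation sites with 6, 13, 10, 9, 9, 10 and 5 tags, highest near its 5′ end, and mutation sites with 3 of 25 and 3 of 23 tags. Locus 36 was built of mutation sites in the main: 3 of them, against 2 truncation sites of 10 tags each. Its pair at 435 and 453 nt from the 5′ end, with 8 of 50 and 4 of 65 covering tags mutated, lay 17 and 35 nt 3′ of a truncation site. No cause is assigned to the distance between these loci or to their shared strand, and whether 1 transcript spans them was not tested.

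In 3 places, dense loci followed each other on 1 strand with under 5000 nt between neighbours. On the minus strand of chromosome 22, loci 32, 18 and 41 lay in that order from 5′ to 3′ over 13301 nt, with 19 listed sites in all, 3 of them between the loci. Locus 32 (chr22:36696295-36697694) had truncation sites of 10, 17 and 9 tags and the group's 2 mutation sites, with 4 of 54 and 3 of 21 tags. Locus 18 (chr22:36689463-36691771) had 7, 5, 11, 8, 8 and 13 tags, each site in its own cluster. Locus 41 (chr22:36684394-36685270) began with the highest site of the group, 19 tags, followed by 7, 8, 9 and 9. The 3 sites between the loci were no weaker, with 7, 16 and 9 tags, so on this chromosome the borders of the loci mark gaps over 1000 nt and not a drop in height.

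On chromosome 2 the upstream locus had the higher median tag count but the lower median ratio of observed to expected tags. That ratio was 15.2 in locus 8 and 26 in locus 15. Locus 8, chr2:232325113-232326418 on the minus strand, carried 15, 11, 17, 14, 23, 8, 6 and 10 truncated tags from 5′ to 3′, with a median of 12.5 and the highest median expected number of the 48, 1.05. Its site with 23 tags, at 232325458 to 232325478, stood against 1.79 expected, so its height came with the highest background among member sites. Locus 15, chr2:232320151-232321245, lay 3867 nt farther 3′ with 8, 8, 12, 6, 9, 9 and 13 tags and no mutation site, and sites of 6 and 5 tags lay between. On chromosome 7 the minus-strand loci 11 (chr7:100282937-100285252) and 31 (chr7:100279461-100281052) were separated by 1884 nt and 0 sites. They were low and rich in mutation sites: truncation sites had 4, 6, 6, 7 and 5 tags in the first and 9, 7 and 7 in the second. Together they held 5 mutation sites, 3 of them with 19 to 22 covering tags.

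**Figure D3:**
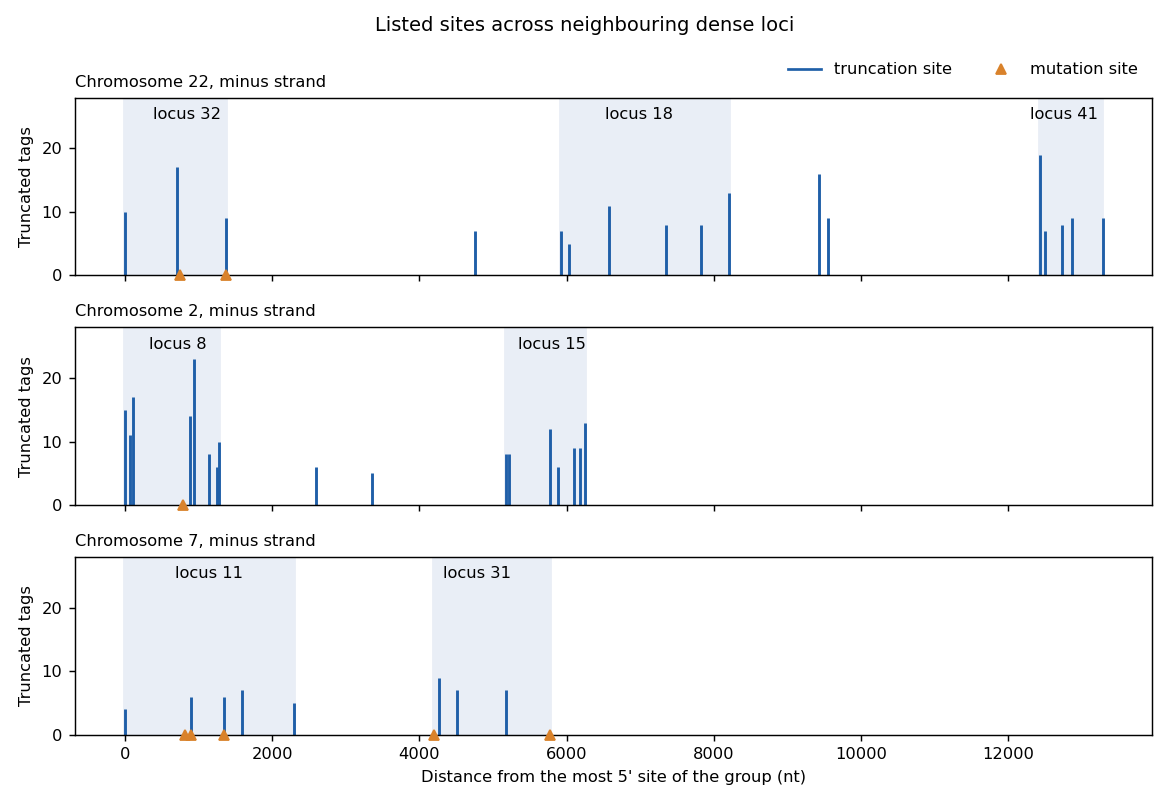
Listed sites across the 3 groups of neighbouring dense loci, as distance in nt from the group's most 5′ site against truncated tags; shading marks the loci, bars are truncation sites and triangles mutation sites, drawn at the base line. On chromosome 22 sites of 7, 16 and 9 tags lie between the shaded loci, on chromosome 2 sites of 6 and 5, and on chromosome 7 none.

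Of the loci with the highest single sites, loci 23, 26, 35 and 40 held 5 or 6 sites. So did most of the 48, 20 with 5 sites and 12 with 6. Locus 14 held 7 sites, and locus 8, described above with a site of 23 tags, held 9. Locus 26, chr1:245026644-245027394 on the minus strand, held the highest, with 31 truncated tags at its most 5′ site (245027374 to 245027394) against 0.84 expected. It was followed 3′ by sites of 17, 9 and 16 tags in the same cluster over 189 nt and a site of 7 beyond. Locus 35, chr19:49993255-49994464 on the plus strand, had the opposite layout, with 8, 7, 11 and 23 tags and the highest site at its 3′ end. In locus 23, chr11:62620133-62621431 on the minus strand, a site of 22 tags stood beside sites of 8, 6, 6 and 14. Locus 14, chr12:6878763-6880063, and locus 40, chr17:48823131-48824024, both on the plus strand, each opened with a site of 20 tags. In locus 14 the rest had 8, 8, 16, 7, 9 and 7, and in locus 40 they had 10, 11, 5 and 6. In all, 37 of the 48 loci had a site with 10 or more tags and 6 had one with 20 or more. The P of 14 truncation sites in 9 loci was at the lowest listed value. That value does not rank sites by height. In locus 1 a site of 13 tags against 0.26 expected had it, whereas a site of 17 tags against 0.26 did not. Locus 1 held 3 of the 14, loci 12, 25 and 37 held 2 each, and loci 2, 26, 34, 35 and 40 held 1 each.

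A few loci had high medians of truncated tags. In locus 37, chr14:39649800-39650861 on the plus strand, all 5 truncation sites had 11 tags or more (17, 11, 12, 17 and 15), a number that the medians of only 4 other loci exceeded (loci 8, 24, 26 and 45). Locus 24, chr17:4575114-4576155 on the minus strand, had 12, 15, 12 and 17 tags and a last site of 4. That last site stood against 0.06 expected tags, a ratio of 66.7, the same as that of the first site of locus 2 (8 tags against 0.12). The 1 member site with a higher ratio, 83.3, was a site of 10 tags against 0.12 in locus 22, chr20:2637275-2638761 on the plus strand. Locus 45, chr19:4422648-4423385 on the plus strand, had the highest median, 16.5, from only 2 truncation sites of 15 and 18 tags 30 nt apart.

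**Figure D4:**
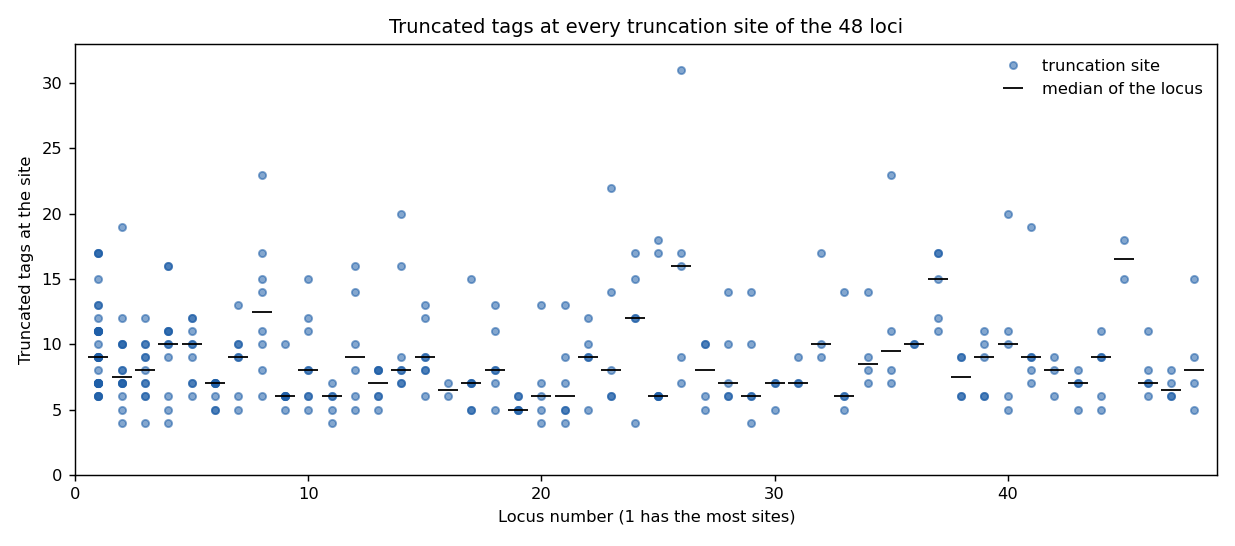
Truncated tags (vertical) at each of the 292 truncation sites by locus number (horizontal), with the median of each locus as a black dash. Medians run from 5 to 16.5 and do not fall with locus number, and locus 26 holds the single highest site, 31 tags.

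Truncation sites alone made up 15 loci with 92 sites. Besides loci 4, 14, 15, 18, 37, 40 and 41, they were locus 10 (chr17:56081075-56084368, minus), 17 (chr11:65685909-65688385, plus), 21 (chr7:65563688-65565422, plus), 25 (chr7:100482019-100482854, plus), 29 (chr1:28906214-28908169, minus), 39 (chr8:144890883-144891926, minus), 44 (chr1:895582-896336, plus) and 46 (chr5:65465949-65466597, plus). Locus 10 was the third longest, at 3294 nt, with sites of 5, 12, 8, 6, 8, 15, 6 and 11 tags and a gap of 996 nt, the widest the rule let pass here. Locus 17 was the sparsest of the 48, with 7, 7, 15, 5, 7 and 5 tags at 2.42 sites per kb. Locus 25 was compact and 2-tiered: 4 of its sites had 6 tags and the others had 18 and 17. Locus 29 carried 4, 14, 10, 6 and 6 tags, and locus 21 carried 4, 13, 7, 5, 5 and 9. In loci 44 and 46 the sites were packed: 4 sites of locus 44 (9, 9, 11 and 6 tags) shared 1 cluster over 120 nt, and 4 of the 5 sites of locus 46 lay from 484 to 628 nt from its most 5′ site. Locus 39 ended in a tight group of 9, 11 and 10 tags after sites of 6 and 6.

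Mutation sites outnumbered truncation sites in 3 loci, 16, 36 and 45. Locus 16, chr8:94745941-94746954 on the minus strand, was the most extreme, with 5 mutation sites and 2 truncation sites of 7 and 6 tags. Its mutation sites had 2 of 4, 3 of 26, 3 of 10, 3 of 6 and 2 of 4 covering tags mutated. In locus 45 the mutation sites had 4 of 49, 3 of 25 and 3 of 21 tags mutated. Of the 33 loci with both kinds of site, 16 had 1 mutation site, 11 had 2, 5 had 3 and locus 16 had 5.

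The 58 mutation sites of the dense loci were mostly of moderate coverage. They had a median coverage of 13.5 tags (quartiles 6 and 24.8, range 2 to 92), against 5 (3 and 8) for the 1965 outside. Coverage of 10 tags or more was reached by 32 of 58 (55.2%, 41.5 to 68.3%), against 18.1% (16.4 to 19.8%) outside. Sites resting on 2 tags that were both mutated, 23.5% (21.6 to 25.4%) of the mutation sites outside, numbered 1 of 58 here (1.72%, 0.0436 to 9.24%), in locus 27. The median mutated share was 25% against 50% outside. At like coverage the median shares were 33.3% at 14 sites inside and 33.3% at 635 outside for 5 to 9 covering tags, and 14.3% at 21 sites and 14.3% at 134 for 20 to 49. For 10 to 19 tags they were 27.3% at 7 sites and 26.3% at 137. In the bands at both ends the medians lay apart, but coverage within those bands was not alike. With 2 to 4 covering tags they were 50% at 12 sites inside and 100% at 975 outside. Of the 12, 9 had 2 of 4 tags mutated, whereas 461 of the 975 rested on 2 tags, both mutated. At 4 covering tags, 2 of 4 was the commonest value outside as well (177 sites). With 50 or more they were 9.14% at 4 sites and 5.80% at 84, where coverage reached 92 inside and 503 outside.

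**Figure D5:**
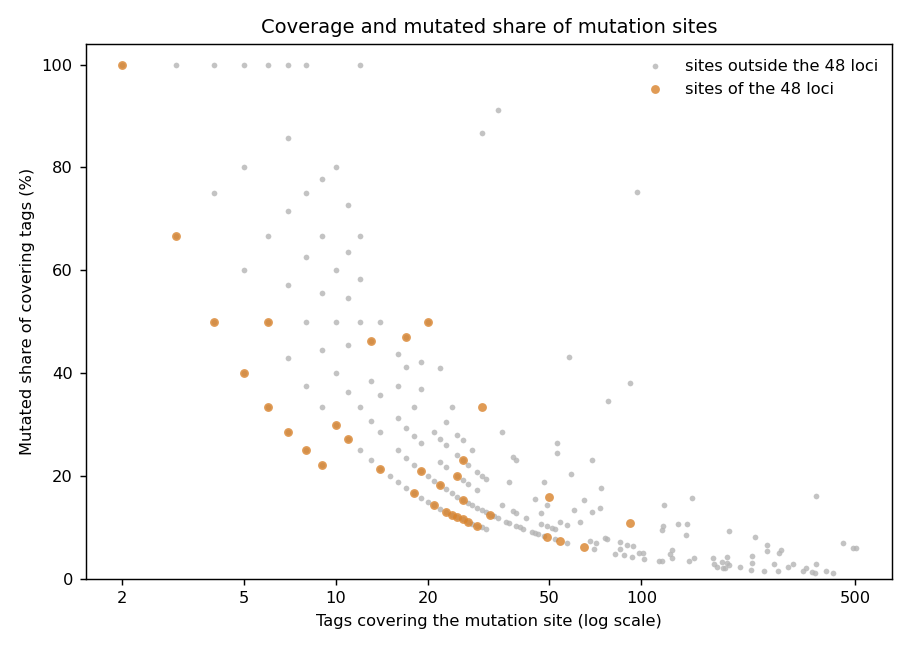
Mutated share of covering tags in percent (vertical) against the number of covering tags (horizontal, log scale) for mutation sites, those of the 48 loci in orange and all others in grey; a point can stand for several sites. Most orange points follow the lower edge of the cloud, at 2 or 3 mutated tags, and the deepest has 92 covering tags and a share of 10.9%.

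The deepest mutation site belonged to a locus with unremarkable truncation sites. Locus 33, chr6:86160226-86161530 on the plus strand, had truncation sites of 5, 6, 14 and 6 tags, and 37 nt 3′ of the one with 14 lay a mutation site with 10 of 92 covering tags mutated (10.9%). Next by coverage were locus 36 with 65 tags, locus 32 with 54 and locus 45 with 49. Locus 43, chr3:184042657-184043524 on the plus strand, followed with 4 of 32, and its truncation sites had 8, 5, 7 and 7 tags. Some sites had many mutated tags for their coverage. Locus 42, chr19:13503500-13504370 on the minus strand, had 10 of 30 (33.3%) and 5 of 25, beside truncation sites of 8, 9 and 6 tags. Locus 48, chr16:47538670-47539185 on the plus strand, the shortest of all, had 8 of 17 (47.1%), and locus 27, chrX:149112692-149113391 on the plus strand, had 6 of 13 (46.2%). Whether H1299 differs from the reference at these bases was not tested. Locus 27 also had the highest median ratio of observed to expected truncated tags, 53.6, with 10, 5, 6 and 10 tags against a median of 0.15.

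Within the loci, 28 of 58 mutation sites (48.3%, 35.0 to 61.8%) lay within 50 nt of a truncation site, and 7 within 10 nt. The loci were chosen for closely spaced sites, and the share that their density alone would give was not worked out. By nearest truncation site, 18 lay 1 to 50 nt to its 3′ side, in 15 loci, and 10 to its 5′ side, in 9 loci. The 18 on the 3′ side were all covered by 13 tags or more, with a median of 25.5, whereas the 10 on the 5′ side ran from 3 to 49 with a median of 13. A tag truncated at a site begins there and runs 3′. It can thus cover a mutation site close by on the 3′ side, but not one on the 5′ side. The difference in coverage is therefore built in, at least in part, by how truncated tags lie. It was not tested, and nothing is drawn from it. The 30 mutation sites farther off went 14 and 16, with a median coverage of 6. No interval was listed as both kinds of site.

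Gaps between neighbouring sites inside the loci varied widely, up to the limit that the joining rule sets on every gap. Whether the sites were more grouped than randomly placed sites of the same density was not tested. Of 302 gaps between neighbouring sites, 123 (40.7%) were under 100 nt and 52 were over 500 nt, with a median of 153 nt (quartiles 54.5 and 344). Of the 350 sites, 203 (58.0%) had a neighbour within 100 nt. The loci were chosen for closely spaced sites, so this share follows in part from the rule. The same share over all listed sites was not worked out. Between truncation sites the smallest gap was 27 nt, while a mutation site could lie 1 nt from a truncation site, as in loci 11 and 45. A gap over 500 nt occurred in 35 loci, and in 9 it exceeded 800 nt. The 13 loci without one included loci 1, 5, 9, 16, 25, 26 and 27.

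Many neighbouring truncation sites shared a tag cluster. There were 218 tag clusters with a truncation site in the loci, 46 of them with 2 or more, and 120 of the 292 sites (41.1%, 35.4 to 47.0%) were in such a cluster. Outside, 11.2% (10.3 to 12.2%) were. Without locus 1 the share was 35.7% (29.8 to 41.8%). Joining neighbours into loci selects for such clusters, so this difference follows in part from the rule. Clusters with 3 or more truncation sites occurred in 11 loci, and in 21 loci every truncation site had its own cluster. From the first to the last truncation site of each locus, 580 clusters were numbered, and 218 of them (37.6%) held a site. In the whole list at most 0.819% of numbered clusters did. The loci were chosen for their listed sites, and each count began and ended at a cluster with a site. This contrast with the whole list is thus largely fixed by the rule, and nothing is drawn from it. Even so, most of the 580 clusters numbered in the dense loci were without a listed truncation site. In locus 11 sites lay in 5 of 26, in locus 10 in 7 of 28, and in locus 19, chr17:62496421-62498611 on the minus strand, in 5 of 24. In locus 42 they lay in 3 of 3 and in locus 45 in 1 of 1.

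The highest truncation site could lie anywhere in a locus. Among the 37 loci with a single highest site it fell in the 5′-most 33.3% of the span in 17, in the middle in 6 and in the 3′-most part in 14. Over all 48 loci, those with tied highest sites included, 1 highest site held between 5.11 and 54.5% of the locus's truncated tags, with a median of 29.6%. The number of truncation sites bounds this share from below: locus 1, with the lowest share, had 34 and locus 45, with the highest, had 2. Pooled over the loci, 173 sites lay before and 177 after the midpoint between the first and last site of their locus. Each locus has a site at both ends by definition, so this balance is in part fixed. Single loci leaned either way, with 4 sites before and 1 after in locus 44, and 1 and 4 in locus 46. The pooled counts thus do not show even spread within a locus.

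The remaining loci were of moderate size and held both kinds of site. Locus 12 (chr6:151670298-151671966, plus) had truncation sites of 6, 16, 10, 14, 8 and 5 tags, and its sites with 16 and 14 were at the lowest P. Locus 13 (chr11:122928620-122930110, minus) was even, with 8, 5, 6, 8, 8 and 6 tags. Locus 19 was the lowest of all by median, with 6, 6, 5, 5 and 5 tags, although a mutation site in it was covered by 29 tags. Locus 20 (chr7:26235514-26237375, minus) had 6, 5, 4, 13 and 7 tags, and locus 22 had 12, 9, 9, 10 and 5. Locus 28 (chr8:58122259-58122954, plus) had 10, 14, 6, 7 and 6 tags in 696 nt, with 5 further listed sites within 10000 nt on its 5′ side. Locus 30 (chr7:73117650-73119561, minus) was sparse, with 7, 7 and 5 tags and mutation sites of 3 of 6 and 2 of 4.

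Locus 34 (chrX:53438745-53439976, minus) paired a site of 14 tags with a mutation site of 3 of 21 tags 4 nt to its 5′ side, and had 8, 9 and 7 tags otherwise. Locus 38 (chr14:105419705-105420763, minus) had 9, 9, 6 and 6 tags after a mutation site 601 nt farther 5′. Locus 47 (chr6:90368027-90368600, minus) had 6, 8, 7 and 6 tags in 574 nt, with a mutation site of 3 of 21 tags at its 3′ end. Among these 10 loci the highest site ranged from 6 to 16 tags, inside the range of 6 to 31 over all 48.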

How the data were processed

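The series measured SRSF1 binding by HITS-CLIP in 2 samples of 1 group. The authors deposited 1 list of sites with whole-number tag counts per site, not normalized and with no column per replicate. Reads were handled with cutadapt and BWA 0.7 on the hg19 build, per the submitters' processing notes. How duplicates and reads with several places were treated, and when the replicates were joined, is not stated in what was used here. Row names follow the CTK toolkit, from which the meaning of truncated, expected, covering and mutated tags was read.

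Sites were joined, counted and summarised with Python 3.11.15, pandas 2.3.3 and scipy 1.17.1. Shares carry exact Clopper-Pearson 95% intervals, which cover counting error only; PCR copies are not independent molecules. With 1 combined list there was no test. Joining was tested on simulated data. The reference at hand is GRCh38, so none of its positions were used. The members were chosen with earlier results of these data known. All 48 loci are named by position; values are fullest for those with the most sites, the highest tags, the deepest mutation sites, the longest and those with 1 kind of site.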

Additional observations from a re-analysis of the deposited data

How the results depend on the processing

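The number of dense loci depends on the joining rule. It was 48 as reported, 23 with gaps up to 500 nt, 73 with 4 or more sites, 28 with 6 or more, 31 when sites closer than 50 nt were counted once and, chosen after seeing the data, 17 among sites above the median tag count of their kind. With gaps up to 2000 nt it was 67 and with no limit on length 61. Each of these settings changes by construction which stretches count as loci. The sites held, 350, became 184 with gaps up to 500 nt and 250 to 507 under the other 4 settings. The truncation share, 83.4%, moved to 77.4% with no limit on length, and was 81.5 to 85.2% under the other 5 settings. The median of 8 truncated tags was 8 under all 3 of its alternatives: with 6 or more sites, without locus 1, and as a median over locus medians. It was not worked out for other gaps, for 4 or more sites or for no limit on length. The short loci that the length limit leaves out had a median of 18. Alternatives that need an hg19 annotation or genome were not run. No paired analysis was possible because the list has no column per replicate, and no replicate could be left out. Depth limits both kinds of site: 32 of 58 mutation sites had 10 or more covering tags, and 103 of 292 truncation sites had 10 or more truncated tags.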
